A study of Homo sapiens with 42 samples.

Results

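The 10 genes GPRC5C, ANTXR1, APBB1, ATP8B2, CHST1, CPA4, CTSH, DAB2IP, ELFN1 and EPN2 were chosen by their measured RNA level, which was higher than in parental cells in each of 4 lines that express a HIF-α protein with a mutated DNA-binding or dimerization domain. They are 10 of 55 genes that met this condition, of 23410 genes tested in the same batch and 60609 genes listed. Without WT replicate 1, 2 or 3 the condition was met by 27, 32 and 37 genes, with 6, 6 and 7 of the 10 among them, and with DESeq2, without the filter on low counts and with a replicate block by 87, 86 and 97 genes, with all 10 among them. HIF (hypoxia-inducible factor) is a dimer of an oxygen-sensitive α subunit and HIF-1β. The α subunit binds DNA through its N-terminal structured domains and carries a long C-terminal intrinsically disordered region (IDR), and the dimer binds hypoxia response elements with an ACGTG or GCGTG core. A subunit that cannot bind DNA or cannot pair with HIF-1β is used as an inactive control for this activity. The levels of the 10 genes were followed across these mutants, functional subunits, chimeras and knock-in clones.

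All 42 libraries were polyA RNA-seq of 786-O, a VHL-deficient clear cell renal cell carcinoma line that keeps its own HIF-2α and lacks functional HIF-1α, with 3 libraries in each of 14 groups. Batch 1 held unmodified cells (WT), a HIF-1β knock-in clone (HIF-1b KIN, clone A21), a HIF-2α knock-in clone (HIF-2a KIN, clone A31), and 6 stable lines expressing HIF-1α, HIF-1α R30E, HIF-1αDM (R170A and V191D), HIF-2α, HIF-2α R27E or HIF-2αDM (R171A and V192D). R30E and R27E lie in the DNA-binding domain and DM marks the dimerization-domain mutants. The description of the HIF-2αDM libraries names HIF-2α, but their genotype label names HIF-1α with the HIF-2α substitutions. Batch 2 held WT cells and stable lines expressing HIF-1α, HIF-2α, or the chimeras HIF-2α/1α and HIF-1α/2α, which join the structured part of the first-named subunit to the IDR of the second. Each knock-in clone is a single clone carrying V5 and Halo tags on both endogenous copies of the gene. In the 10 stable lines a V5-Halo-tagged protein was driven by the weak L30 promoter in WT cells that retained endogenous HIF-2α. All 10 were made by PiggyBac nucleofection and puromycin selection, which the WT cells did not undergo, so the expressed protein and the handling of the line cannot be told apart in any comparison with WT. The methods call the 3 libraries of a group biological replicates. Each group is 1 line, so p-values cover the spread between these libraries and not that between independently made lines.

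The counted reads per library ranged from 42377599 to 101186554 in batch 1 and from 76366799 to 109642159 in batch 2, and 3 reads corresponded to a CPM (reads scaled to a common total) between 0.0274 and 0.0708. No pair of libraries held identical counts. The expressed subunits were highest in the lines labelled with them. HIF1A averaged 243 normalised counts in WT of batch 1 and 3036, 2518 and 2238 in the HIF-1α, HIF-1α R30E and HIF-1αDM lines, against 920 in the HIF-2α line, and EPAS1 (HIF-2α) averaged 14547 in WT and 45191, 56142 and 48508 in the HIF-2α, HIF-2α R27E and HIF-2αDM lines. Of 14 genes listed as HIF targets, 10 and 9 were called higher than WT in the HIF-1α and HIF-2α lines of batch 1. In the R30E, HIF-1αDM, R27E and HIF-2αDM lines 1, 0, 1 and 0 were, with 3 lower in R30E. Of all genes, 3.27%, 3.78%, 2.04%, 0.453%, 0.449% and 0.440% were called higher in these 6 lines in the same order. For the lower calls no share is given. The list includes HSD3B7, PLXNA2 and PPFIA4, which the paper shows as responsive genes in lines of this study. All 7 listed markers of kidney epithelium or of clear cell renal cell carcinoma lines, VIM among them, were detected in every library. Of 14 markers of blood, endothelium, neurons and fibroblasts, 3 were at or below 3 reads in every library of batch 1 and 1 was in batch 2. The summed level of these 14 markers, to which NEFL contributed most, ranged from 468 to 655 CPM in WT of batch 1 and lay below all WT libraries in R30E (302 to 449) and in HIF-2a KIN (269 to 394), while the other 6 groups overlapped WT. In batch 2 it ranged from 391 to 432 in WT and was lower in every library of all 4 lines, at 358 to 366 in HIF-1α, 361 to 379 in HIF-2α/1α, 272 to 333 in HIF-2α and 241 to 269 in HIF-1α/2α. The part these markers had in the results was not tested. In such bulk RNA a smaller number of expressing cells and less RNA per cell cannot be told apart.

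The genes code for surface proteins, enzymes and adaptors. GPRC5C is an orphan class C G-protein-coupled receptor induced by retinoic acid, ANTXR1 is a cell-surface anthrax toxin receptor that binds collagen, and ELFN1 is a leucine-rich-repeat transmembrane protein of synapses. CHST1 is a Golgi sulfotransferase of keratan sulfate, CPA4 a secreted metallocarboxypeptidase, CTSH a lysosomal cysteine protease and ATP8B2 a phospholipid flippase. APBB1 (Fe65) is an adaptor that binds the cytoplasmic tail of the amyloid precursor protein, DAB2IP a Ras GTPase-activating scaffold and EPN2 an adaptor of clathrin-mediated endocytosis. In hg38 with GENCODE 44 the genes lie on 7 chromosomes, and the members of each pair that shares one are far apart. GPRC5C spans chr17:74424851-74451653 on the plus strand and EPN2 chr17:19215615-19336715 on the plus strand. APBB1 spans chr11:6395125-6419414 and CHST1 chr11:45647689-45665622, both on the minus strand. ANTXR1 lies at chr2:69013176-69249327, ATP8B2 at chr1:154325525-154351304, CPA4 at chr7:130293134-130324180, ELFN1 at chr7:1665745-1747946 and DAB2IP at chr9:121567057-121785530, all on the plus strand, and CTSH at chr15:78921058-78949574 on the minus strand. EPN2 shares exonic bases with B9D1 on the opposite strand and with a lncRNA, and CHST1 shares exonic bases with an antisense lncRNA. Reads in these stretches cannot be assigned by strand in these unstranded counts.

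The window of 250 bases upstream of annotated transcript starts was read for each gene that had an entry in the RefSeq promoter table of GRCh38.p14, which held 18 windows for 8 of the 10 genes and none for GPRC5C or CHST1. The sequences below are 1 window from each of the 4 genes that had a window free of annotated exons, shown because they let the HIF core motif be compared between members that were higher in the same lines. They run 5′ to 3′ on the strand of the gene. Capitals mark each GCGTG, or CACGC where the motif is on the other strand.
ANTXR1, chr2:69012894-69013143, plus strand: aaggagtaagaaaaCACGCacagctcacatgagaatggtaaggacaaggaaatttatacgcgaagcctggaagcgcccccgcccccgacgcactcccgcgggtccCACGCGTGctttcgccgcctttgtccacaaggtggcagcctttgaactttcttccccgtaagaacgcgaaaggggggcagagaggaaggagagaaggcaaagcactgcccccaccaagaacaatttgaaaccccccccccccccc
ATP8B2, chr1:154328548-154328797, plus strand: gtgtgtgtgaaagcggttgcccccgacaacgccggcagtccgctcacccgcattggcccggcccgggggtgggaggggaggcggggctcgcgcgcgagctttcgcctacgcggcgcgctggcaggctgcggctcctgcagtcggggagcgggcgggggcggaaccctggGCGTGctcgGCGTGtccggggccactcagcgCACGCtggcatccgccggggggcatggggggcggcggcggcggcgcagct
APBB1, chr11:6419095-6419344, minus strand: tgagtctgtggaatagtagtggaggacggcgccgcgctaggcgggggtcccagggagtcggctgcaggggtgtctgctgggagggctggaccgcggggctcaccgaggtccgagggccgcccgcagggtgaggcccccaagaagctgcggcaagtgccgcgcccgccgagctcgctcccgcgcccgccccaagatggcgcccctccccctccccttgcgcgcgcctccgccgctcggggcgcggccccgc
DAB2IP, chr9:121651384-121651633, plus strand: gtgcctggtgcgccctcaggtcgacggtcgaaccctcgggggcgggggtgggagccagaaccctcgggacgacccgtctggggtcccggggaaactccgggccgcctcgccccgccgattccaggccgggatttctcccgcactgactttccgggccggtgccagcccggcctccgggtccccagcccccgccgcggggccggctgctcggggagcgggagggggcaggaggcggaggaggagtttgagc
ANTXR1 and ATP8B2 each held 3 matches to GCGTG in these windows, and APBB1 and DAB2IP held none of either motif. ATP8B2 had another exon-free window, chr1:154327497-154327746, which is not shown and held none of either motif. APBB1 and DAB2IP also each had another exon-free window that is not shown, again without either motif. Over both strands, 6 of the 18 windows, from 5 of the 8 genes, held a GCGTG and 1 of the 18, from APBB1, also an ACGTG. Among 35116 promoter windows of the same length, 32.2% held GCGTG, 18.5% ACGTG and 43.2% at least 1 of them. A match is a run of letters and is not evidence of binding.

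In the 4 mutant lines the 10 genes were higher than WT by construction, and the values are given as a description. Each gene had all 3 libraries of each mutant line above all 3 WT libraries. This was also the case for 9.93%, 8.27%, 6.06% and 7.70% of all genes tested in R30E, HIF-1αDM, R27E and HIF-2αDM. The share of all genes called higher, at an adjusted p of at most 0.01 and at least 2-fold, was 2.04%, 0.453%, 0.449% and 0.440%. The median log2 difference from WT over the 10 genes was 2.73 in R30E, 2.09 in HIF-1αDM, 2.06 in R27E and 2.05 in HIF-2αDM, while the median over all genes lay between -0.039 and 0.0031.

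GPRC5C and ELFN1, which code for surface proteins, were low in WT. GPRC5C was at 6.66, 11.4 and 24.3 normalised counts in WT (counts scaled to a common library size within a batch). It reached 543, 1012 and 793 in R30E and 419.9, 1708 and 509 in HIF-1αDM. In the HIF-2α mutants it was 163, 347 and 345 in R27E and 310.2, 538 and 299.8 in HIF-2αDM. Every mutant library was therefore far above the highest WT library, and the replicates of HIF-1αDM differed from each other more than those of the other mutants did. The log2 differences from WT were 5.75, 5.92, 4.31 and 4.73 in the same order of lines. ANTXR1, at 239, 245 and 233 in WT, was 1315, 1594 and 1615 in R30E and 457, 577 and 621 in HIF-1αDM. It was 637, 669 and 831 in R27E and 646, 784 and 878 in HIF-2αDM. Its libraries were tight within each line, and R30E stood above the other 3 mutants. ELFN1 was 12.5, 9.54 and 9.99 in WT, 284, 683 and 954 in R30E, 28.5, 141 and 78.0 in HIF-1αDM, 81.6, 145 and 336 in R27E and 74.9, 122 and 107 in HIF-2αDM. It had the widest gap among mutants, with the R30E mean 7.75 times the HIF-1αDM mean, and the libraries of R30E, HIF-1αDM and R27E each spread over more than 3-fold.

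Among the enzymes, CHST1 departed from the order of the other genes. It was 1.66, 4.77 and 7.85 in WT, where the libraries held 2, 5 and 11 reads. It was 35.2, 20.3 and 38.9 in R30E and 24.1, 18.1 and 50.2 in R27E. The dimerization mutants were higher, at 97.1, 121 and 99.0 in HIF-1αDM and 159, 174 and 173 in HIF-2αDM. No library of either dimerization mutant overlapped one of either DNA-binding mutant. CPA4 was 29.1, 13.4 and 9.27 in WT, 344, 561 and 276 in R30E and 182, 131 and 138 in HIF-1αDM. It was 141, 106 and 35.7 in R27E and 99.2, 126 and 87.1 in HIF-2αDM, and the lowest R27E library came close to the highest WT library. CTSH was 196, 232 and 182 in WT, 1093, 1092 and 1001 in R30E, 409, 644 and 522 in HIF-1αDM, 494, 449 and 487 in R27E and 444, 611 and 479.7 in HIF-2αDM. R30E again stood apart from the other 3 lines, which overlapped. ATP8B2 was 93.2, 115 and 94.2 in WT, 526, 717 and 751 in R30E, 269.8, 341 and 326 in HIF-1αDM, 370.0, 393 and 351 in R27E and 292, 294 and 268 in HIF-2αDM, with narrow spread within each line.

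Among the adaptors, DAB2IP had the highest WT level per kilobase of exon of the 10 genes, at 0.969 ± 0.198 RPKM (CPM per kilobase of exon, SD, n = 3), against 0.0152 ± 0.00986 for CHST1, the lowest. Its normalised counts were 517, 651 and 782 in WT, 3503, 3888 and 5544 in R30E and 1927, 2524 and 2577 in HIF-1αDM. They were 1981, 1996 and 3223 in R27E and 2341, 2226 and 2525 in HIF-2αDM. The log2 difference from WT was 2.73 in R30E and between 1.86 and 1.90 in the other 3 lines. APBB1 was 84.9, 126 and 162 in WT, 641, 526 and 789 in R30E, 276, 365 and 359 in HIF-1αDM, 311, 322 and 523 in R27E and 447, 443 and 454 in HIF-2αDM. EPN2 was 54.9, 67.7 and 76.3 in WT, 699, 755 and 978 in R30E, 279.6, 331 and 384 in HIF-1αDM, 233, 270.1 and 418 in R27E and 287, 319 and 323 in HIF-2αDM. R30E had the highest mean of the 4 mutants for 8 of the 10 genes, the exceptions being GPRC5C (HIF-1αDM) and CHST1 (HIF-2αDM). R30E also had the largest share of all genes called higher, 2.04% against 0.453%, 0.449% and 0.440% in HIF-1αDM, R27E and HIF-2αDM. The 55 genes that met the rule include the 10 and were chosen on the same values, so their medians are a description. Over these 55 genes the median log2 difference from WT was 3.15 in R30E. It was 1.95 in HIF-1αDM, 2.14 in R27E and 2.14 in HIF-2αDM. Among the 10 genes the ratio of the highest to the lowest mutant mean was smallest for DAB2IP (1.84) and APBB1 (1.96) and largest for CHST1 (5.47) and ELFN1 (7.75). At the border of the rule, ANTXR1 had the smallest difference among the 10 genes (log2 1.21 in HIF-1αDM) and CPA4 the largest adjusted p by edgeR (0.00605). Just outside it were CACNA1H (adjusted p by edgeR 0.0163 in R27E), OAS2 (0.0394 in HIF-2αDM) and CYP26B1 (0.0224 in HIF-1αDM), each of which was called in the other 3 mutants.

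**Figure D1:**
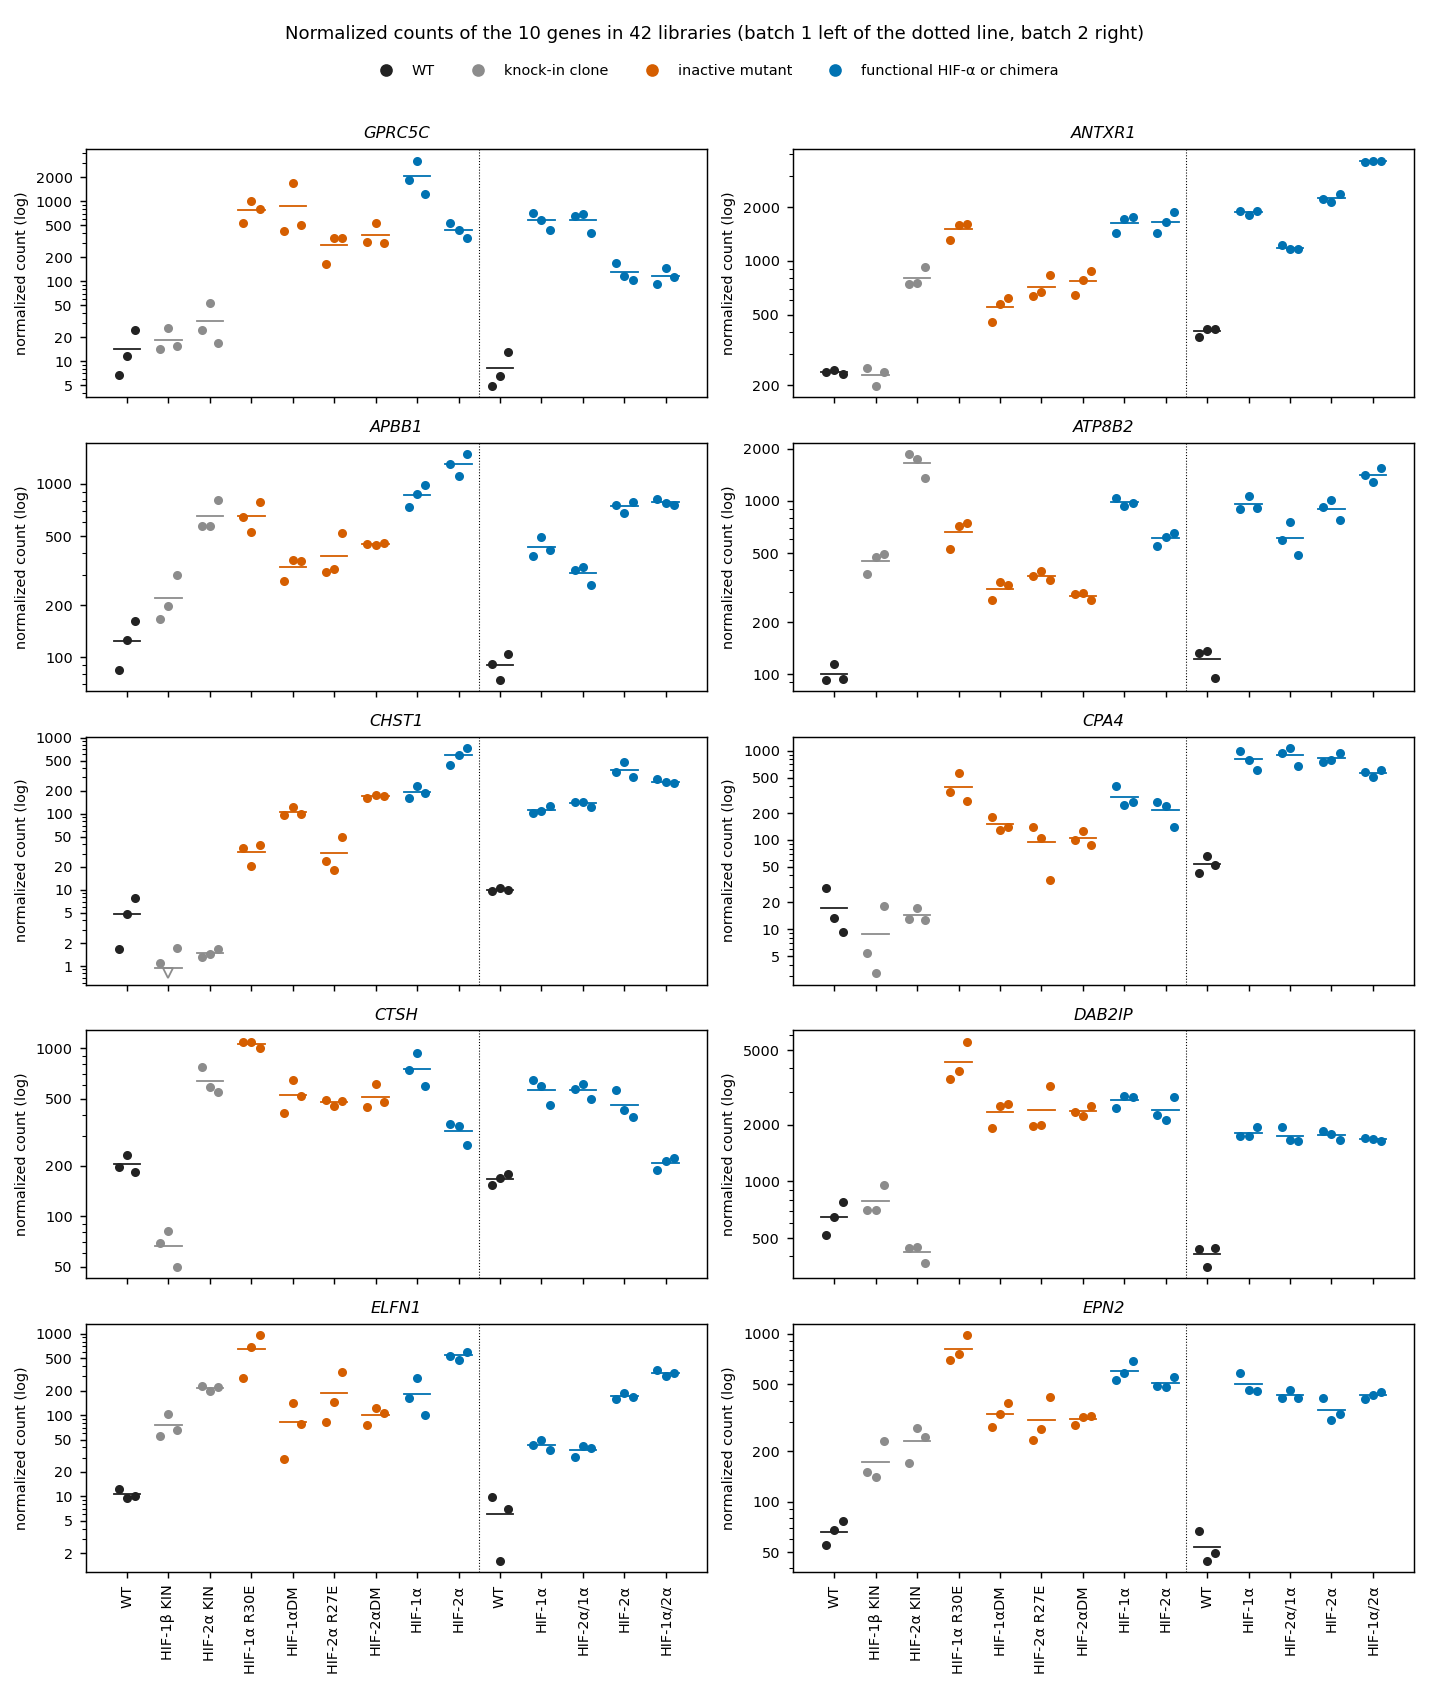
Normalised counts of the 10 genes in every library (log axis, each batch scaled on its own), with WT in black, knock-in clones in grey, mutants in orange, functional subunits and chimeras in blue, bars at group means and an open triangle at the axis bottom for the library with 0 reads of CHST1. All libraries of the 10 expressing lines lie above all WT libraries of their batch, whereas the knock-in clones overlap WT for GPRC5C, CHST1 and CPA4. For CHST1 the clone means, 0.934 in HIF-1b KIN and 1.47 in HIF-2a KIN, are below the WT mean of 4.76.

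The functional HIF-1α and HIF-2α lines of batch 1 use the same 3 WT libraries as the rule did, so their differences from WT are also given without a test. All 3 libraries of both lines were above all WT libraries for all 10 genes, as for 13.1% of all genes with HIF-1α and 15.1% with HIF-2α. GPRC5C reached 1825, 3242 and 1252 normalised counts with HIF-1α and 529, 435 and 351 with HIF-2α. CHST1 showed the opposite order, with 163, 228 and 189.8 with HIF-1α and 435, 583 and 731 with HIF-2α. The HIF-1α line was thus higher for GPRC5C and the HIF-2α line higher for CHST1, with no overlap of libraries in either case. ANTXR1 was 1444, 1718 and 1761 with HIF-1α and 1436, 1658 and 1888 with HIF-2α, APBB1 736, 871 and 990.4 and 1304, 1113 and 1481. For ANTXR1, APBB1 and CHST1 both functional means were above every mutant mean. CPA4 was 401, 245 and 264 with HIF-1α and 264, 240.4 and 139 with HIF-2α, DAB2IP 2461, 2863 and 2800.3 and 2249, 2114 and 2817, with overlap of the 2 lines for both genes. For CPA4, CTSH, DAB2IP, ELFN1 and EPN2, R30E had a higher mean than the HIF-1α line, for instance for EPN2 with 699, 755 and 978 against 531, 587 and 687. The smallest difference from WT was that of CTSH in the HIF-2α line, at 353, 343 and 266 and a log2 difference of 0.64.

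Batch 2 gave WT libraries and lines that the rule had not used. Compared with these WT libraries, all 10 genes rose with HIF-1α, HIF-2α and HIF-2α/1α, and 9 of 10 with HIF-1α/2α (edgeR quasi-likelihood test, Benjamini-Hochberg adjusted p at most 0.01 and at least 2-fold). Of all 28724 genes tested, 3.90% were called higher with HIF-1α, 5.45% with HIF-2α, 2.98% with HIF-2α/1α and 5.10% with HIF-1α/2α. The median log2 change of the 10 genes was 2.91, 2.98, 2.51 and 3.29 in this order, against 0.030, 0.070, 0.032 and 0.077 over all genes. Each of the 10 genes had all libraries of the 4 lines above all WT libraries, as did 18.8%, 21.6%, 17.1% and 21.5% of all genes in the same order. These 4 comparisons share their WT libraries with each other.

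GPRC5C stood at 4.88, 6.46 and 13.1 normalised counts in WT of batch 2 and at 711, 590.0 and 442 in the HIF-1α line. It was 660.4, 693 and 406 in HIF-2α/1α, 170.1, 117 and 102 in HIF-2α and 91.8, 144 and 112 in HIF-1α/2α. The lines with the HIF-1α IDR formed a high pair and those with the HIF-2α IDR a lower pair, with no overlap between the pairs and none with WT. The log2 changes were 6.16 ± 0.28 (SE), 6.19 ± 0.28, 4.02 ± 0.32 and 3.84 ± 0.32, with edgeR adjusted p of at most 8.63e-14. ELFN1, at 9.77, 1.61 and 7.05 in WT, had the reverse order. It was 42.7, 49.8 and 37.2 in HIF-1α, 30.6, 42.1 and 39.8 in HIF-2α/1α, 159, 185 and 167 in HIF-2α and 361, 302 and 333 in HIF-1α/2α. The HIF-2α IDR pair was the high one here, and within it the chimera lay above HIF-2α in every library. The log2 changes of ELFN1 ran from 2.67 ± 0.36 to 5.80 ± 0.30. Its WT libraries held only 10, 2 and 7 reads. With 1 library left out, its change ran from 2.34 to 3.36 in HIF-1α and from 5.30 to 6.32 in HIF-1α/2α. ANTXR1 was 375, 416 and 417 in WT, 1903, 1824 and 1901 in HIF-1α, 1231, 1171 and 1168 in HIF-2α/1α, 2225, 2151 and 2370.3 in HIF-2α and 3579, 3652 and 3665 in HIF-1α/2α. No 2 of these groups overlapped, and the log2 change ran from 1.57 ± 0.078 to 3.19 ± 0.079.

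CHST1 was 9.77, 10.5 and 10.1 in WT of batch 2, 104, 108 and 127 in HIF-1α, 144, 144 and 124 in HIF-2α/1α, 352, 475 and 306 in HIF-2α and 282, 260.3 and 249.9 in HIF-1α/2α. Both lines with the HIF-2α IDR lay above both with the HIF-1α IDR, and the log2 changes were 3.46, 3.76, 5.22 and 4.70. CPA4 was 43.0, 65.4 and 52.4 in WT and between 504 and 1072 in all 12 libraries of the 4 lines, with log2 changes from 3.39 ± 0.18 to 4.06 ± 0.18. ATP8B2 was 133, 137 and 95.7 in WT, 904, 1074 and 905 in HIF-1α, 598, 756 and 489 in HIF-2α/1α, 922, 1014 and 775 in HIF-2α and 1402, 1278 and 1555 in HIF-1α/2α. The chimeras were its lowest and highest lines, without overlap with the others, and it rose by log2 2.97, 2.34, 2.90 and 3.54. CTSH was the only one of the 10 genes that missed the call in any of these lines. It was 152, 169 and 178 in WT, 643, 599 and 459 in HIF-1α, 569.7, 616 and 501 in HIF-2α/1α, 561, 427 and 389 in HIF-2α and 187, 213 and 223 in HIF-1α/2α. The HIF-1α/2α libraries were just above those of WT without overlap, and the log2 difference was 0.33 ± 0.15 (95% interval 0.026 to 0.63, edgeR adjusted p = 0.0897).

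Of the adaptors, DAB2IP and EPN2 changed by like amounts in every line of batch 2. DAB2IP was 436, 350.3 and 441 in WT, 1745, 1744 and 1941 in HIF-1α, 1939.9, 1665 and 1651 in HIF-2α/1α, 1857, 1797 and 1671 in HIF-2α and 1711, 1678 and 1645 in HIF-1α/2α. The 4 lines overlapped each other, except HIF-1α and HIF-1α/2α, and all lay above WT, with log2 changes of 2.15 ± 0.089, 2.12 ± 0.089, 2.14 ± 0.089 and 2.06 ± 0.089. EPN2 was 66.4, 44.4 and 49.4 in WT, 583, 465 and 458 in HIF-1α, 414, 465 and 412 in HIF-2α/1α, 412, 306 and 332 in HIF-2α and 408, 434 and 451 in HIF-1α/2α. It rose by log2 2.74 to 3.24, with the lowest mean in HIF-2α. APBB1 was 91.8, 74.3 and 104 in WT, 386, 494 and 415 in HIF-1α, 319, 333 and 260.1 in HIF-2α/1α, 759.9, 677 and 784 in HIF-2α and 822, 774 and 751 in HIF-1α/2α. Both lines with the HIF-2α IDR lay above both with the HIF-1α IDR in every library. APBB1 rose by log2 2.27 and 1.78 with the HIF-1α IDR and by 3.07 and 3.14 with the HIF-2α IDR. Of the 55 genes that met the rule, 34 were called higher than WT in all 10 expressing lines of both batches, 9 of the 10 genes among them, and CTSH was called in 8 of the 10 lines. These 34 genes are 0.148% of the 22915 genes tested in both batches. The rule fixed the calls in 4 of the 10 lines, and 2 more lines share its WT libraries, so the count of 34 is a description. In batch 2 alone, 462 genes (1.61% of those tested) were called higher in all 4 lines, 9 of the 10 genes among them. In the functional lines of batch 1, 3.27% of all genes were called higher in HIF-1α and 3.78% in HIF-2α. Of these 55 genes, 53 were called higher in batch 2 with HIF-1α, 46 with HIF-2α, 51 with HIF-2α/1α and 44 with HIF-1α/2α.

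**Figure D2:**
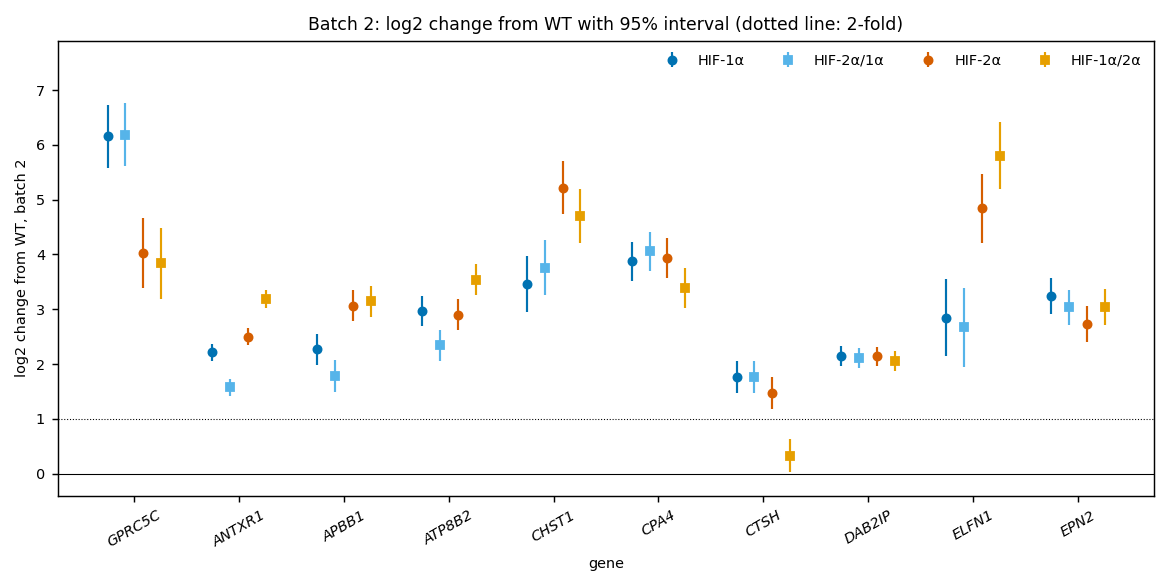
Log2 change of each of the 10 genes from WT in the 4 lines of batch 2, with 95% intervals from the edgeR fit and a dotted line at 2-fold. Every interval lies above the dotted line except that of CTSH in HIF-1α/2α, whose change was 0.33.

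The 4 lines of batch 2 cross the structured part of each subunit with each IDR. The mean difference between the HIF-2α IDR and the HIF-1α IDR was tested over 12 libraries, 3 from each line. Each IDR is held by 2 lines, so p-values cover the spread between libraries and not that between lines. The same holds for the structured part below. The RNA of the subunits also differed between lines. HIF1A averaged 13251.5 normalised counts in HIF-1α and 9589.7 in HIF-2α/1α, and EPAS1 42311.8 in HIF-2α and 51172.5 in HIF-1α/2α. The part of these levels was not tested. The IDR difference was called for 4 of the 10 genes, 3 higher and 1 lower with the HIF-2α IDR, against 1.90% and 2.50% of all genes. GPRC5C fell by 2.24 ± 0.14 on the log2 scale (edgeR adjusted p = 7.2e-18), which is 4.74-fold lower with the HIF-2α IDR. ELFN1 rose by 2.57 ± 0.17 (edgeR adjusted p = 3.17e-17), CHST1 by 1.35 ± 0.12 (edgeR adjusted p = 1.92e-12) and APBB1 by 1.08 ± 0.086 (edgeR adjusted p = 2.38e-14). Another 3 genes passed the adjusted p but not the 2-fold limit, with log2 differences of 0.95 for ANTXR1, 0.56 for ATP8B2 and -0.86 for CTSH. The share of all genes that did so was not computed. CPA4 (-0.31), EPN2 (-0.25) and DAB2IP (-0.035) did not pass. For DAB2IP the 95% interval, -0.15 to 0.082, excluded a 2-fold difference in either direction.

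The same subunits could be compared in batch 1, as the HIF-2α line against the HIF-1α line, with no WT library involved. GPRC5C (log2 -2.28 ± 0.47, edgeR adjusted p = 0.00235) and CTSH (-1.25 ± 0.21, 0.000254) were lower in the HIF-2α line and CHST1 was higher (1.57 ± 0.34, 0.00437). Of all genes 0.935% were called higher and 1.46% lower. The number called fell from 3 to 1, CTSH, without HIF-1α replicate 2 or without HIF-2α replicate 2 or 3. ELFN1 was 161, 288 and 99.4 normalised counts with HIF-1α and 535, 481 and 604 with HIF-2α. The groups did not overlap, and the log2 difference was 1.56 ± 0.48 with an edgeR adjusted p of 0.0583. A fit blocked on the replicate number was also made, since same-numbered libraries of these groups deviated together, and in it the difference was 1.59 with an edgeR adjusted p of 0.00405, and over all alternatives the adjusted p ran from 1.55e-05 to 0.222. ATP8B2 was 1039, 936 and 972 with HIF-1α and 549.6, 620.4 and 655 with HIF-2α, a log2 difference of -0.71 ± 0.17 (edgeR adjusted p = 0.00962) that stayed under 2-fold. In batch 2 the HIF-2α and HIF-1α lines overlapped for this gene, and the IDR difference, which averages over the chimeras, was positive. ANTXR1 differed by log2 0.0013 (95% interval -0.34 to 0.34) in batch 1.

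**Figure D3:**
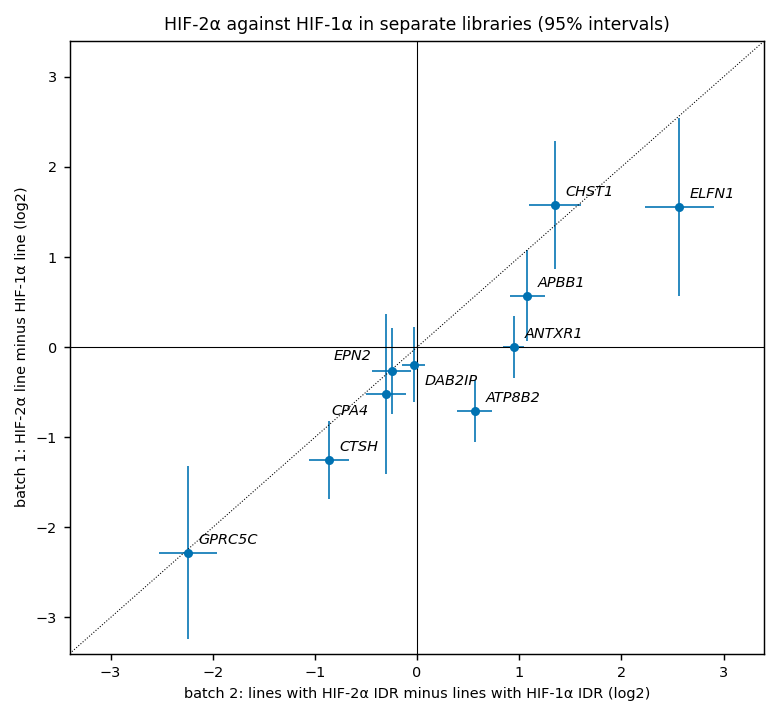
Log2 difference between the HIF-2α and HIF-1α IDRs in batch 2 (x axis) and between the HIF-2α and HIF-1α lines in batch 1 (y axis) for the 10 genes, with 95% intervals and a dotted line of equality. GPRC5C lies at -2.24 and -2.28 and CHST1 at 1.35 and 1.57, close to the line, while ATP8B2 lies at 0.56 and -0.71, in the quadrant where the signs differ. The x axis averages over the chimeras, which batch 1 did not hold.

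Exchanging the structured part while averaging over the IDRs moved none of the 10 genes past the call, for which the share over all genes was 1.04%. By edgeR 4 genes passed the adjusted p limit of 0.01 at less than 2-fold. These were ANTXR1 (log2 -0.67 ± 0.05 with the HIF-2α structured part), ATP8B2 (-0.63 ± 0.084), CTSH (0.58 ± 0.10) and CPA4 (0.37 ± 0.10). The edgeR test gave an unadjusted p under 0.05 for 8 of the 10 genes, and DESeq2 also called 0. The share of all genes passing the adjusted or the unadjusted limit alone was not computed. The counts of 4 and 8 genes are therefore a description without a background. A test of whether the effect of the structured part depended on the IDR called CTSH alone of the 10 genes, against 1.18% of all genes. In CTSH the HIF-2α structured part went with a higher level beside the HIF-2α IDR (561, 427 and 389 in HIF-2α against 187, 213 and 223 in HIF-1α/2α) and not beside the HIF-1α IDR (569.7, 616 and 501 against 643, 599 and 459). The difference of differences was log2 1.14 ± 0.20 (95% interval 0.75 to 1.54, edgeR adjusted p = 4.4e-05), and 0.97 without HIF-2α replicate 1 of batch 2, under 2-fold.

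The 2 knock-in clones carry tags on endogenous HIF-1β or HIF-2α and express no additional subunit. Their differences from WT share the WT libraries of the rule and are given as a description. In the HIF-1b KIN clone 4 of the 10 genes had all libraries above all WT libraries (background 7.96%) and 5 overlapped. In the HIF-2a KIN clone 6 were above (background 11.6%) and 3 overlapped. GPRC5C was 14.2, 25.6 and 15.4 normalised counts in HIF-1b KIN and 24.7, 52.8 and 16.9 in HIF-2a KIN. CPA4 was 5.45, 3.20 and 18.0 in HIF-1b KIN and 13.0, 17.1 and 12.6 in HIF-2a KIN. CHST1 had 0 to 2 reads per library in both clones, with means of 0.934 in HIF-1b KIN and 1.47 in HIF-2a KIN against 4.76 in WT. These 3 genes overlapped WT in both clones, whereas ATP8B2, ELFN1 and EPN2 lay above WT in both. ATP8B2 was 379, 474 and 496 in HIF-1b KIN and 1857, 1738 and 1355 in HIF-2a KIN, which was higher than in any of the expressing lines of batch 1. ELFN1 was 55.6, 104 and 65.1 and 228, 195 and 222, and EPN2 150.4, 139.9 and 229 and 169, 274 and 244, in the same order. CTSH was below WT in HIF-1b KIN, at 68.7, 81.2 and 49.7, and above it in HIF-2a KIN, at 769, 591 and 548. ANTXR1 overlapped WT in HIF-1b KIN, at 249.6, 199 and 239, and was above it in HIF-2a KIN, at 740.0, 748 and 920.4. APBB1 was 167, 198 and 299 in HIF-1b KIN, just above the highest WT library, and 574, 569 and 812 in HIF-2a KIN. DAB2IP was below every WT library in HIF-2a KIN, at 442, 448 and 368. The median log2 difference of all genes on chromosome 17, which holds GPRC5C and EPN2, was 0.20 in HIF-1b KIN and 0.42 in HIF-2a KIN, and that of chromosome 15, which holds CTSH, was 0.22 and -0.15. The part of these shifts in the values of single genes was not tested.

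Compared directly with each other, without WT, the 2 clones differed in 4 of the 10 genes, all higher in HIF-2a KIN, against 1.58% of all genes. CTSH rose by log2 3.27 ± 0.23 (edgeR adjusted p = 1.85e-10), ATP8B2 by 1.89 ± 0.17 (edgeR adjusted p = 2.52e-08), ANTXR1 by 1.82 ± 0.17 (edgeR adjusted p = 4.41e-08) and APBB1 by 1.57 ± 0.25 (edgeR adjusted p = 0.000154). ELFN1 differed by log2 1.54 ± 0.49 with an edgeR adjusted p of 0.062, and by 1.61 with an edgeR adjusted p of 0.00539 with the replicate block, where its alternatives ran from 5.47e-05 to 0.237. DAB2IP was lower in HIF-2a KIN by less than 2-fold (log2 -0.90 ± 0.21, edgeR adjusted p = 0.00692). Each clone is a single clone, so tagging of the gene and differences between clones cannot be told apart.

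The 6 libraries of the functional HIF-1α and HIF-2α lines were also compared with the 6 libraries of the knock-in clones. In this comparison 9 of the 10 genes were higher in the functional lines, against 5.22% of all genes. The clones were made by genome editing and cell sorting, and the methods name no puromycin selection for them. The expressed protein and the handling of the line therefore cannot be told apart here either. CHST1 had 1888 reads in the 6 functional libraries and 7 in the 6 knock-in libraries, a depth-adjusted ratio of 300 with a 95% counting interval of 145.3 to 747.2. GPRC5C rose by log2 5.33 ± 0.40, CPA4 by 4.46 ± 0.38, DAB2IP by 2.14 ± 0.15 and ANTXR1 by 1.94 ± 0.12, with edgeR adjusted p of at most 6.35e-10. APBB1 (1.47), EPN2 (1.46), CTSH (1.25) and ELFN1 (1.30) rose by less. The average over both clones and both lines covers unlike groups for CTSH and ELFN1. CTSH was higher in HIF-2a KIN (769, 591 and 548) than in the HIF-2α line (353, 343 and 266) and was lowest in HIF-1b KIN (68.7, 81.2 and 49.7). ELFN1 in HIF-2a KIN (228, 195 and 222) overlapped the HIF-1α line (161, 288 and 99.4) and its lowest mean of these groups was in HIF-1b KIN (55.6, 104 and 65.1). The call for ELFN1 (edgeR adjusted p = 0.00642) was lost in 8 of 12 fits that left out 1 library, with log2 values of 1.06 to 1.46 and adjusted p of 0.00308 to 0.0331. ATP8B2 did not differ beyond the spread, at log2 -0.16 ± 0.12 (95% interval -0.41 to 0.083, edgeR adjusted p = 0.387). Its values in HIF-2a KIN were the highest of the batch and those in HIF-1b KIN were under both functional lines.

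**Figure D4:**
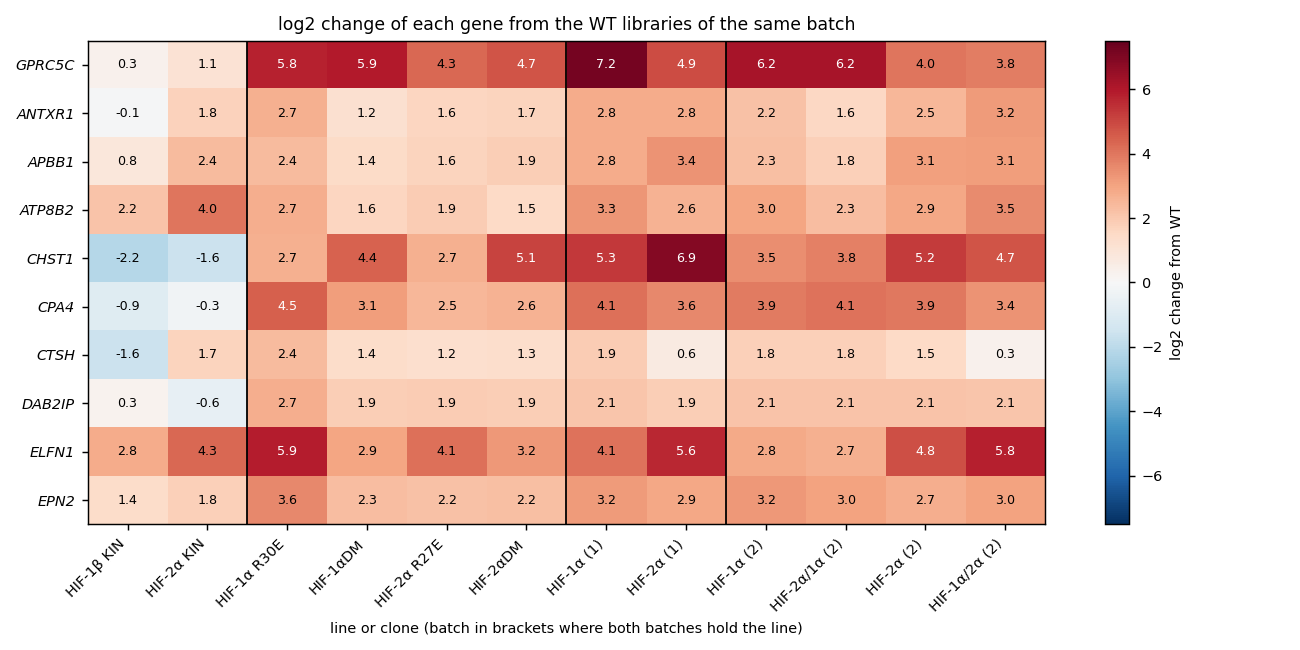
Log2 difference from the WT of the same batch for the 10 genes (rows) in the 12 other groups (columns). The columns of the 10 expressing lines are positive for all 10 genes, and the knock-in columns run from -2.17 (CHST1 in HIF-1b KIN, whose libraries held 0 to 2 reads of it) to 4.33 (ELFN1 in HIF-2a KIN).

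Most family members of the 10 genes were not called. Of 38 listed relatives, 34 were tested in batch 2, and 3, 8, 1 and 5 were called higher and 0, 4, 1 and 2 lower, taking HIF-1α, HIF-2α, HIF-2α/1α and HIF-1α/2α in turn. Of all genes tested, 3.90%, 5.45%, 2.98% and 5.10% were called higher in the same order of lines. For the lower calls no such share is given. None of the relatives was called higher than WT in all 4 lines. In the cathepsin family of CTSH, the lysosomal protease CTSF rose by log2 2.52, 2.35 and 2.63 with HIF-1α, HIF-2α and HIF-2α/1α and was at 1.18 without a call in HIF-1α/2α. CTSS fell in HIF-2α/1α (log2 -1.18) and HIF-2α (-2.16). Among sulfotransferases, CHST2 rose in both lines with the HIF-2α IDR (2.33 and 2.24), and CHST4 rose in HIF-1α (2.17), HIF-2α (3.30) and HIF-1α/2α (3.62). CHST2 and CHST1 were both called higher with the HIF-2α IDR, CHST2 by 1.81 in batch 2 and by 2.27 in the HIF-2α line against the HIF-1α line of batch 1.

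The relatives of GPRC5C that were called in batch 2 were lower than WT. GPRC5B fell by 2.06 and by 1.00 on the log2 scale in HIF-2α and HIF-1α/2α, where GPRC5C rose, and GPRC5A fell by 1.09 in HIF-2α. In the comparison of IDRs GPRC5B and GPRC5C were both lower with the HIF-2α IDR (log2 -1.84 and -2.24), as they were in the HIF-2α line against the HIF-1α line of batch 1 (edgeR adjusted p = 1.02e-08 and 0.00235). ELFN2 rose in HIF-2α (1.37) and HIF-1α/2α (1.24). The flippase ATP8A1 fell in the same lines (-1.68 and -1.83).

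Of 12 listed binding partners, APLP1 alone was called against WT in batch 2. In the comparison of IDRs another partner was called higher with the HIF-2α IDR, against 1.90% of all genes. APLP1 is a relative of the amyloid precursor protein whose tail is bound by APBB1, and it rose by log2 2.98 in HIF-1α, 2.92 in HIF-2α/1α, 3.73 in HIF-2α and 2.70 in HIF-1α/2α. In the mutants of batch 1 it was at 1.99 in R30E, 1.83 in HIF-1αDM, 1.60 in R27E and 1.06 in HIF-2αDM, of which the last was not called. APLP1 was lower in HIF-2a KIN than in HIF-1b KIN (log2 -2.11, edgeR adjusted p = 9.06e-06), whereas APBB1 was higher there (1.57). The other 11 partners were not called against WT in any line of batch 2. They include TMEM30A, the flippase subunit paired with ATP8B2, the clathrin chain CLTC and the cystatin CST3.

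**Figure D5:**
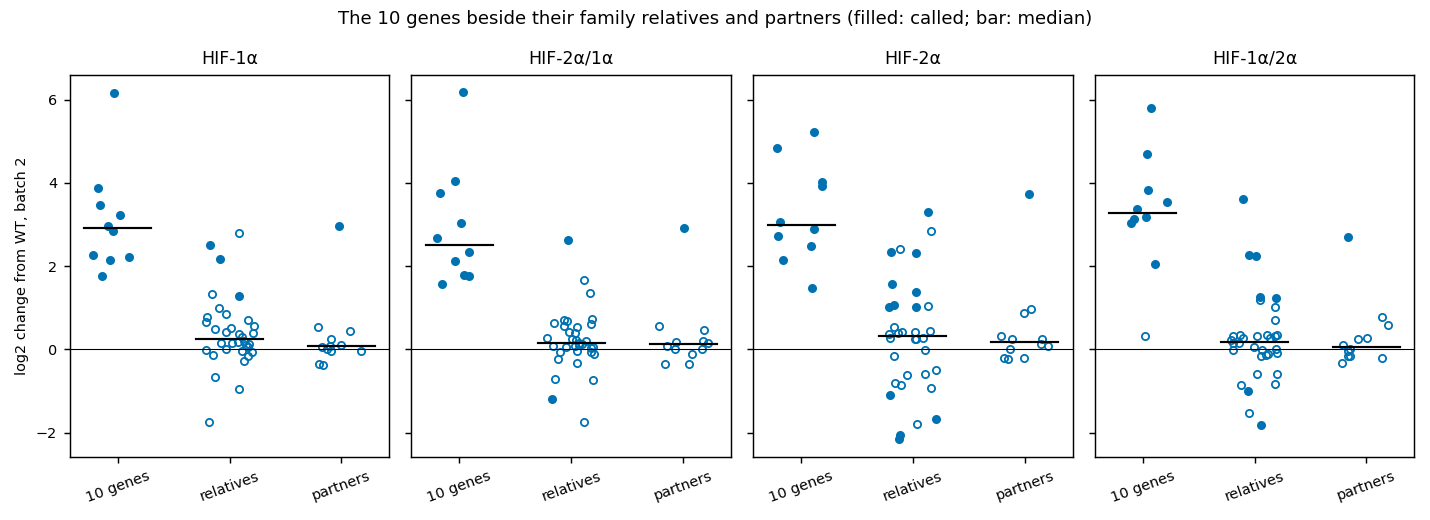
Log2 change from WT in the 4 lines of batch 2 for the 10 genes, their relatives and their partners, with filled points for genes called and a bar at the median of each list. The medians of the 10 genes lie between 2.51 and 3.29, those of the relatives between 0.15 and 0.32 and those of the partners between 0.061 and 0.18.

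The mean log2 difference from WT over the 10 genes was compared with that of every gene across the 12 groups other than WT, among 12462 genes with a mean of at least 50 normalised counts in each batch. The 5 genes most like it by Pearson's r were SHANK3 (0.967), TRIM7 (0.966), LYNX1 (0.957), SORCS2 (0.956) and DAAM2 (0.956), of which LYNX1 and SORCS2 also met the rule. The 12 groups share the WT libraries of their batch, and these values are a description. The 10 genes themselves correlated with their own mean to unequal degrees, from 0.146 for ATP8B2 and 0.482 for ELFN1 to 0.955 for CPA4. ATP8B2 and ELFN1 had the largest log2 differences from WT of the 10 genes in HIF-2a KIN, 4.04 and 4.33.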

How the data were processed

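RNA was sequenced as polyA libraries in 2 batches, prepared with different extraction and library kits, which were therefore normalised and tested apart. The deposited files hold raw counts per gene, which the authors made with STAR 2.7 and HTSeq 0.11.1 on hg38 per the submitters' notes, from uniquely mapped reads and without strand. No column without a sample was present. The analysis used edgeR 4.0.16 in R 4.3.3 with TMM scaling (factors 0.810 to 1.15 in batch 1 and 0.960 to 1.03 in batch 2), genes with a mean normalised count of at least 0.5, 1 quasi-likelihood fit per batch over all its groups and Benjamini-Hochberg adjustment over all genes tested. A gene was called at an adjusted p of at most 0.01 and at least 2-fold, the limits of the study, which used DESeq2. All 10 members passed the filter in both batches. Errors of log2 values are standard errors from the fit. Intervals and floors from reads cover counting error only.

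The members and the lists of relatives, partners, HIF targets and markers were chosen with earlier results of these data known. All members were named, relatives and partners where called or as examples of those not called, the 5 genes most like the mean of the members, and the 3 genes nearest to the rule outside it. Calls and values from comparisons that reuse the WT libraries of batch 1 are given as a description, without p-values except at the border of the rule. Same-numbered libraries deviated together in batch 1, with correlations of 0.207, 0.101 and 0.405 over the 3 numbers for HIF-2α against HIF-1α and of 0.125, 0.277 and 0.392 for the 2 clones. In batch 2 they lay between -0.019 and 0.024, so the libraries there share only a number. Alternatives were DESeq2 1.42.0, its size-factor scaling, no filter, a fit to only the groups compared, the replicate block and leaving out each library. Scripts were tested on simulated data. Promoter windows are from RefSeq on GRCh38.p14.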

Additional observations from a re-analysis of the deposited data

Results flagged for a closer look

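The effect of the structured part of the HIF-α subunit on CTSH depended on the IDR in batch 2, with a difference of differences of log2 1.14 (95% interval 0.75 to 1.54, edgeR adjusted p = 4.4e-05). It was singled out because 2 groups differed in the same contrast by a test of the interaction itself. Beside the HIF-2α IDR, all 3 HIF-2α libraries (561, 427 and 389 normalised counts) lay above all 3 HIF-1α/2α libraries (187, 213 and 223), and beside the HIF-1α IDR the libraries of the 2 structured parts overlapped. Without HIF-2α replicate 1, the highest library of its group, the value was 0.97 (edgeR adjusted p = 0.000742), and over all alternatives it ran from 0.97 to 1.28 with adjusted p from 3.46e-08 to 0.000742. Of the other 9 members none was called in this test.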

How the results depend on the processing

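Of the counts of members called, 173 alternatives stayed within 1.5 times the main value and 5 did not. No member was called in R27E against WT in a fit to only these groups, where 2 genes were called higher and 1 lower over the whole table, and the number ran from 8 to 9 when 1 library was left out. The number called in HIF-2α against HIF-1α of batch 1 ran from 1 to 3 when 1 library was left out, and that in the interaction from 0 to 1. The condition of being higher in all 4 mutants was met by 55 genes and by 87 with DESeq2, 86 without the filter, 97 with the replicate block and 56 with DESeq2 size factors, each time with all 10 members, and by 27 to 37 without 1 WT library. The alternatives for this rule were chosen after seeing the data. APBB1, CHST1, CTSH and ELFN1 were lost without WT replicate 1, APBB1, CHST1, CPA4 and ELFN1 without replicate 2, and CPA4, CTSH and ELFN1 without replicate 3. Without 1 mutant library 8 to 10 members kept the condition. The cause was not tested.

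With 1 library left out, CHST1 in HIF-2α against HIF-1α missed the call in 5 of 6 fits (log2 1.36 to 1.75, adjusted p 0.00507 to 0.0451) and GPRC5C in 3 of 6 (-2.54 to -1.83, adjusted p 0.00148 to 0.0306). Values near 0 changed sign. These were ANTXR1 in HIF-2α against HIF-1α (-0.0015 with the replicate block, -0.11 to 0.096 with 1 library left out) and, with 1 library left out in batch 2, ATP8B2 (-0.16 to 0.16) and GPRC5C (-0.10 to 0.33) in the interaction, DAB2IP in the IDR (-0.063 to 0.0048) and structured-part difference (-0.015 to 0.051) and GPRC5C in the structured-part difference (-0.013 to 0.21). Apart from ELFN1 in the 2 comparisons given in the report, the replicate block changed no call of a member. The depth limits CHST1 and GPRC5C in WT and CHST1 in the knock-in clones, where single libraries held few reads. It also limits ELFN1 in WT of batch 2 (10, 2 and 7 reads) and CPA4 in HIF-1b KIN (5, 3 and 21 reads).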

Other observations

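Within batch 1, libraries with the same replicate number were often the highest of their group for the same gene. GPRC5C was highest in replicate 2 in 7 of the 8 groups other than WT, and ANTXR1, APBB1 and EPN2 were highest in replicate 3 in 7 of 8 each. CTSH was highest in replicate 1 or 2 in all 8, 4 groups each. What the replicate numbers share is not stated in the sources used here.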
